A study of Homo sapiens with 8 samples.

Results

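Keratins are the intermediate filament proteins of epithelial cells. Each filament is built from pairs of 1 acidic type I and 1 basic type II chain, and the chains a cell makes change as it leaves the basal layer of a stratified epithelium. In the esophagus, basal cells make mainly KRT5 and KRT14, and cells above them KRT4 and KRT13, where the epidermis makes KRT1 and KRT10. KRT6A, KRT16 and KRT17 are induced in stratified epithelia after wounding or other stress, and KRT8 and KRT18 are the chains of simple epithelia.

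The family was taken as every gene listed as KRT followed by a number and at most 1 letter, which leaves out keratin-associated proteins and pseudogenes. This gave 55 of the 25369 genes in the table, 29 of type I and 26 of type II, with 27 on chromosome 12 and 28 on chromosome 17. RNA sequencing measured them in EPC2-hTERT cells of wild-type genotype, a single human esophageal epithelial cell line immortalised with telomerase. The cells were grown as a layered epithelium at an air-liquid interface, with 2 days to confluence, 5 days in medium with 1.8 mM CaCl2 and 4 days of exposure to air. Cultures then received 1 mM dimethyloxalylglycine (DMOG) in 4 libraries or DMSO vehicle in 4 libraries, for 18 h. DMOG inhibits prolyl hydroxylases, which target hypoxia-inducible factors for degradation, and the comparison asked how expression differs between these treatments. No other agent or genotype was varied, and a culture of 1 immortalised line holds no stroma, immune cells or vessels of the esophagus.

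The libraries held 31245695 to 39931833 reads in genes, and 10558 to 11242 genes per library reached 1 RPKM (reads scaled to gene length and library total). All 13 non-keratin markers of esophageal squamous epithelium reached 1 RPKM in all 8 libraries, and their sum was 6224 to 8323 scaled RPKM with DMOG and 5598 to 6418 with vehicle. All 8 markers of columnar epithelium, 7 of 8 of fibroblasts, 5 of 8 of immune cells and 3 of 4 of endothelium stayed under 0.1 RPKM in every library. The fibroblast sum, which was mostly COL1A1, was 18 to 37.7 with DMOG and 8.69 to 12.6 with vehicle. The immune sum, which was mostly CD68, was 58.7 to 101 with DMOG and 39.4 to 70.1 with vehicle. DMOG replicate 2 stood apart from its group: on the first principal component (65.5% of the variance) it lay at -17.0, against 14.9 to 56.2 for the other DMOG libraries and -23.4 to -21.2 for vehicle. The authors' deposited table of fold changes was computed from replicates 1, 3 and 4 of each group. Fold changes are therefore given for those 6 libraries and for all 8. Why replicate 2 was omitted is not given in the sources at hand, so the omission may rest on the measured values, and the p-values of the 6 libraries do not allow for such a choice.

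Keratin transcripts took 10.2%, 8.94%, 10.4% and 11.7% of all gene reads in DMOG replicates 1 to 4, and 7.81%, 10.3%, 7.66% and 7.62% in vehicle replicates 1 to 4. The groups overlapped only through replicate 2, where DMOG was below vehicle. The means were 10.3 ± 1.14% with DMOG and 8.35 ± 1.3% with vehicle (SD, n = 4 each), and 10.8 ± 0.832% with DMOG and 7.7 ± 0.0975% with vehicle over replicates 1, 3 and 4 (n = 3 each). Of the family, 24 genes passed the filter of 1 RPKM in at least 4 libraries, 12 of each type. KRT17, KRT6A, KRT5, KRT14 and KRT16 together took 81.1% to 91.8% of the keratin reads of a library.

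Over all 8 libraries no keratin differed between treatments at a limma adjusted p under 0.05, as was the case for all 11122 genes tested (0 of 11122, a background of 0%). At an unadjusted p under 0.05, 6 keratins were higher and 1 was lower with DMOG, beside 14.0% of all genes higher and 16.3% lower. The median log2 fold change of the 24 keratins was 0.34, against 0.00 for all genes tested. In the 6 libraries 8 keratins rose and 2 fell, beside 13.9% of all genes that rose and 16.0% that fell. There the median was 0.56 for the keratins and 0.00 for all genes. With RPKM as deposited, 6 keratins rose and 3 fell in the 6 libraries, and of all genes 682 rose and 3836 fell in place of 1541 and 1775. The filter was met by KRT2 through 4 DMOG and 2 vehicle libraries and by KRT31 through 2 DMOG and 4 vehicle libraries, so these counts describe the genes that passed and not the whole family.

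**Figure D1:**
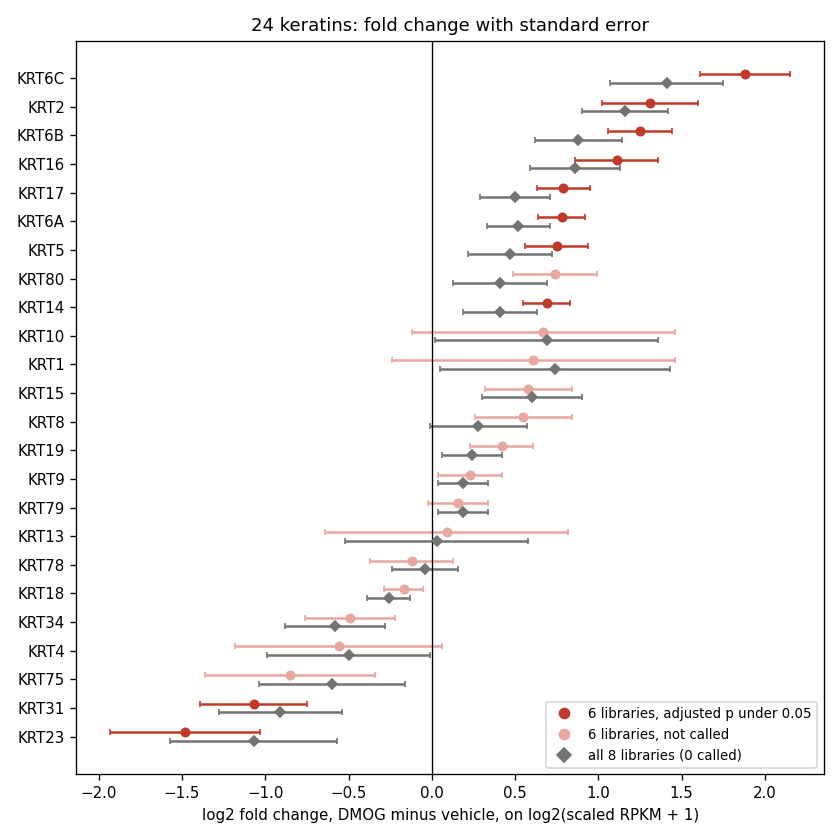
Log2 fold change (DMOG minus vehicle, on the log2(scaled RPKM + 1) scale) of the 24 keratins tested, with bars of 1 standard error. Circles are the 6 libraries of the authors' comparison (dark where the adjusted p was under 0.05) and grey diamonds all 8 libraries, where 0 were called. KRT6C stands at the top with 1.88 and KRT23 at the bottom with -1.48.

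By type, 5 of the 12 type II keratins rose and 0 fell in the 6 libraries, and 3 of the 12 type I keratins rose and 2 fell, beside the 13.9% and 16.0% of all genes. The type II keratins that rose were KRT2, KRT5, KRT6A, KRT6B and KRT6C. The type I keratins that rose were KRT14, KRT16 and KRT17, and those that fell were KRT23 and KRT31. The difference between types was not tested, and reads of the KRT6 genes are hard to tell apart. The calls of KRT23 and KRT31 were lost on leaving out any 1 library except DMOG replicate 3. Summed over their genes, the chain types stayed close to each other in all libraries: type I made up 55.8% to 60.2% of the keratin sum with DMOG and 55.5% to 58.8% with vehicle.

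The stress keratins KRT6A, KRT16 and KRT17 held the largest part of the keratin sum in every library, 61.3% to 70.6% with DMOG and 59.3% to 67.6% with vehicle. Their sum was 37468 ± 9833 scaled RPKM with DMOG and 24570 ± 4320 with vehicle (SD, n = 4 each), a ratio of 1.52. Over replicates 1, 3 and 4 it was 41136 ± 8016 with DMOG and 22441 ± 890.5 with vehicle (n = 3 each), a ratio of 1.83. All 3 genes rose in the 6 libraries, beside 13.9% of all genes that rose. Over all libraries they were not called, and each 6-library call was lost in some fits that left out a single library. In whole tissue layers such as these, more cells of a kind and more RNA per cell cannot be told apart.

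KRT6A, a type II chain of wounded epithelium (chr12:52880958-52887181, minus strand, hg19), had 13518, 9932, 13278 and 16584 scaled RPKM in DMOG replicates 1 to 4, and 8247, 11720, 8382 and 8523 in vehicle replicates 1 to 4. Only vehicle replicate 2 reached into the DMOG range, above DMOG replicate 2. The log2 fold change was 0.78 ± 0.14 (SE, limma adjusted p = 0.0115) in 6 libraries and 0.52 ± 0.19 (adjusted p = 0.124) in 8. The 6-library call was lost without vehicle replicate 1 (adjusted p = 0.0617) or vehicle replicate 4 (0.0501).

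KRT16, a type I partner of KRT6 chains (chr17:39766031-39769079, minus strand), had 8931, 5356, 7835 and 14240 scaled RPKM with DMOG, and 4377, 4901, 4111 and 5555 with vehicle. DMOG replicate 2 was the one DMOG library that did not exceed all vehicle libraries. The log2 fold change was 1.11 ± 0.25 (adjusted p = 0.0197) in 6 libraries and 0.86 ± 0.27 (0.118) in 8. Without DMOG replicate 1, vehicle replicate 1 or vehicle replicate 3 the 6-library call was lost (adjusted p = 0.0591, 0.0785 and 0.0652).

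KRT17, a type I chain of appendages and wounds and the keratin with the highest mean in both groups (chr17:39775692-39780882, minus strand), had 15218, 11173, 14326 and 19480 scaled RPKM with DMOG, and 8884, 14337, 10039 and 9204 with vehicle. Here too the groups overlapped through replicate 2. The log2 fold change was 0.79 ± 0.16 (adjusted p = 0.0151) in 6 libraries and 0.50 ± 0.21 (0.153) in 8. The 6-library call was lost without DMOG replicate 1, vehicle replicate 1 or vehicle replicate 4 (adjusted p = 0.0571 to 0.0757).

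KRT6B and KRT6C, close copies of KRT6A on chromosome 12, rose in the 6 libraries by larger estimated fold changes than KRT6A, a difference between genes that was not tested. KRT6B (chr12:52840435-52845910, minus strand) had 2058, 1394, 2604 and 2000 scaled RPKM with DMOG, and 960.6, 1634, 1122 and 740.2 with vehicle. KRT6C (chr12:52862300-52867569, minus strand) had 336.3, 209.6, 562.3 and 375.8 with DMOG, and 102.9, 207.8, 157.7 and 86.92 with vehicle. All 4 DMOG libraries were above all 4 vehicle libraries for KRT6C, though DMOG replicate 2 exceeded vehicle replicate 2 by little. The separation was met by KRT6C and KRT2 alone among the 24, beside 5.04% of all genes higher without overlap and 7.33% lower.

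KRT6C had a log2 fold change of 1.88 ± 0.27 (SE, adjusted p = 0.00693) in 6 libraries and 1.41 ± 0.34 (adjusted p = 0.118) in 8. KRT6B had 1.25 ± 0.19 (adjusted p = 0.00782) in 6 libraries and 0.88 ± 0.26 (0.118) in 8. Their 6-library calls held with any 1 library left out, with adjusted p up to 0.0388 for KRT6C and 0.0408 for KRT6B. An exact two-sided permutation test of the 4 against 4 libraries gave p = 0.0286 for KRT6C, the smallest that design allows, and 0.0571 for KRT6B. Every gene without overlap reaches that smallest value. The level of KRT6C relative to KRT6A was 0.0249, 0.0211, 0.0423 and 0.0227 with DMOG, and 0.0125, 0.0177, 0.0188 and 0.0102 with vehicle, without overlap. That of KRT6B relative to KRT6A was 0.152, 0.14, 0.196 and 0.121 with DMOG, and 0.116, 0.139, 0.134 and 0.0868 with vehicle, with overlap.

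The 3 KRT6 genes are hard to tell apart by sequence, so the split of reads among them is uncertain. Their coding sequences are 1692 bases long and identical at 97.5% of positions between KRT6A and KRT6B, 97.9% between KRT6A and KRT6C and 98.5% between KRT6B and KRT6C. The longest run shared by all 3 is 269 bases. Of the 50-base words of their transcripts, 39.1% for KRT6A, 47.1% for KRT6B and 53.6% for KRT6C also occur in another keratin. Windows of 60 bases were compared within the 540 bases of the first coding exon only, and the later coding bases were not searched. The window of that exon in which they differ most is shown, with the 5 differing positions in capitals (coding bases 436 to 495, GRCh38, minus strand, at chr12:52492694-52492753 for KRT6A, chr12:52451584-52451643 for KRT6B and chr12:52473243-52473302 for KRT6C).
KRT6A: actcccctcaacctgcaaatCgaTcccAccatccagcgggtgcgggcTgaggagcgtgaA
KRT6B: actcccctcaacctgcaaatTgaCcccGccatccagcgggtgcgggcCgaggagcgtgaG
KRT6C: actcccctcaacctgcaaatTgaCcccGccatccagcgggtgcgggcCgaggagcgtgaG
In that window KRT6B and KRT6C carry the same bases, and a read from it could be told from KRT6A but not between those copies. The handling of reads with several matches is not given in the sources at hand.

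**Figure D2:**
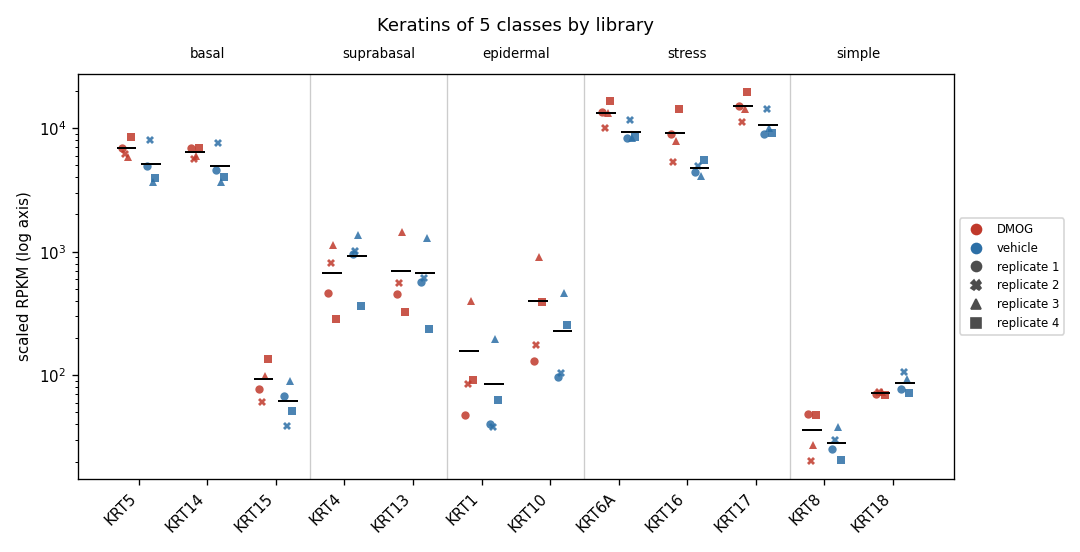
Scaled RPKM on a log axis of the 12 keratins of the 5 classes in each library, with DMOG in red left of vehicle in blue, the replicate number as the marker and the group mean (n = 4) as a bar. The stress and basal keratins lie highest apart from KRT15, and for KRT5, KRT14, KRT17 and KRT6A the cross of vehicle replicate 2 is the highest vehicle value.

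The basal keratins KRT5 and KRT14, which pair with each other in basal cells, rose in the 6 libraries but not in 8. KRT5 (chr12:52908359-52914243, minus strand) had 6849, 6156, 5872 and 8543 scaled RPKM with DMOG, and 4970, 8079, 3650 and 3956 with vehicle. KRT14 (chr17:39738531-39743147, minus strand) had 6964, 5661, 5984 and 6898 with DMOG, and 4560, 7640, 3689 and 4039 with vehicle. Vehicle replicate 2 was within or above the DMOG range for both genes, and the other vehicle libraries were below it. The log2 fold change of KRT5 was 0.75 ± 0.19 (adjusted p = 0.0287) in 6 libraries and 0.47 ± 0.25 (0.223) in 8. That of KRT14 was 0.69 ± 0.14 (adjusted p = 0.0151) in 6 libraries and 0.41 ± 0.22 (0.225) in 8.

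Both 6-library calls were lost when vehicle replicate 2 was added back (adjusted p = 0.185 for KRT5 and 0.17 for KRT14) and with RPKM as deposited (0.45, adjusted p = 0.0784 for KRT5 and 0.39, 0.0583 for KRT14). That of KRT5 was also lost with no filter (0.0545). They were also lost without DMOG replicate 1 or any 1 of the 3 vehicle libraries, with adjusted p of 0.0582 to 0.0969 for KRT5 and 0.0532 to 0.0705 for KRT14. The ratio of KRT14 to KRT5 stayed near 1 in all libraries, from 0.807 to 1.02 with DMOG and from 0.918 to 1.02 with vehicle. KRT15, a basal type I keratin, had 77.32, 61.18, 98.85 and 136.5 scaled RPKM with DMOG, and 67.54, 38.5, 89.56 and 51.32 with vehicle. Its DMOG library was above the vehicle library at every replicate number, and the groups overlapped. The log2 fold change of KRT15 was 0.58 ± 0.26 (adjusted p = 0.132) in 6 libraries and 0.60 ± 0.30 (0.201) in 8.

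The suprabasal keratins of the esophagus did not pass the test in either comparison. KRT4 had 458.8, 802.1, 1131 and 285.3 scaled RPKM with DMOG, and 953.3, 1012, 1358 and 365.7 with vehicle. KRT13 had 450.8, 557.1, 1438 and 323.9 with DMOG, and 568.4, 613.3, 1280 and 238.7 with vehicle. In both groups replicate 3 was the highest and replicate 4 the lowest library for both genes, and the groups overlapped. KRT4 was lower with DMOG at every replicate number, with a log2 fold change of -0.56 ± 0.62 (adjusted p = 0.51) in 6 libraries and -0.50 ± 0.49 (0.486) in 8. KRT13 was lower with DMOG in replicates 1 and 2 and higher in replicates 3 and 4. Its log2 fold change was 0.09 ± 0.73 (adjusted p = 0.931) in 6 libraries and 0.03 ± 0.55 (0.97) in 8. The sign of KRT13 was negative with RPKM as deposited (-0.22 in 6 libraries and -0.18 in 8).

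The ratio of KRT13 to its partner KRT4 was 0.982, 0.695, 1.27 and 1.14 with DMOG, and 0.596, 0.606, 0.943 and 0.653 with vehicle. DMOG was above vehicle at every replicate number, and the groups overlapped because vehicle replicate 3 lay above DMOG replicate 2. Together KRT4 and KRT13 made up 0.855% to 4.54% of the keratin sum with DMOG and 1.75% to 7.21% with vehicle.

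KRT1 and KRT10, the suprabasal pair of epidermis, varied widely between replicates, over 3.05 and 2.77 log2 units with DMOG and 2.35 and 2.26 with vehicle. KRT1 had 47.49, 85.26, 400.4 and 92.23 scaled RPKM with DMOG, and 40.08, 37.73, 196.5 and 62.49 with vehicle. KRT10 had 130.9, 174.8, 900.3 and 389.6 with DMOG, and 95.84, 104.5, 462.6 and 255.7 with vehicle. Replicate 3 was the highest library of both groups, the groups overlapped, and DMOG was above vehicle at every replicate number for both genes. Without pairing, the log2 fold change was 0.61 ± 0.85 (adjusted p = 0.606) for KRT1 and 0.67 ± 0.79 (0.535) for KRT10 in 6 libraries. In 8 libraries it was 0.74 ± 0.69 (0.46) for KRT1 and 0.69 ± 0.67 (0.484) for KRT10.

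Same-numbered libraries deviated together in the 6 libraries, and with the replicate number as a block both epidermal keratins were called higher. The blocked standard error was 0.16 for KRT1 (adjusted p = 0.0356) and 0.13 for KRT10 (0.0168), with the fold changes as above. KRT4 had a blocked adjusted p of 0.0563. Without the block, leaving out 1 of the 6 libraries moved the log2 fold change over -0.25 to 1.27 for KRT1, 0.01 to 1.39 for KRT10 and -1.11 to -0.11 for KRT4. The block brought the calls to 11 keratins higher and 4 lower, beside 19.7% of all genes higher and 20.7% lower. Besides the epidermal pair, it called KRT80 higher (adjusted p = 0.0115) and KRT75 (0.00915) and KRT34 (0.0453) lower. In all 8 libraries not every same-numbered pair deviated together, and the block called 0 keratins. No label pairs the libraries, so the block rests on these same values, and its p-values do not allow for that choice.

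**Figure D3:**
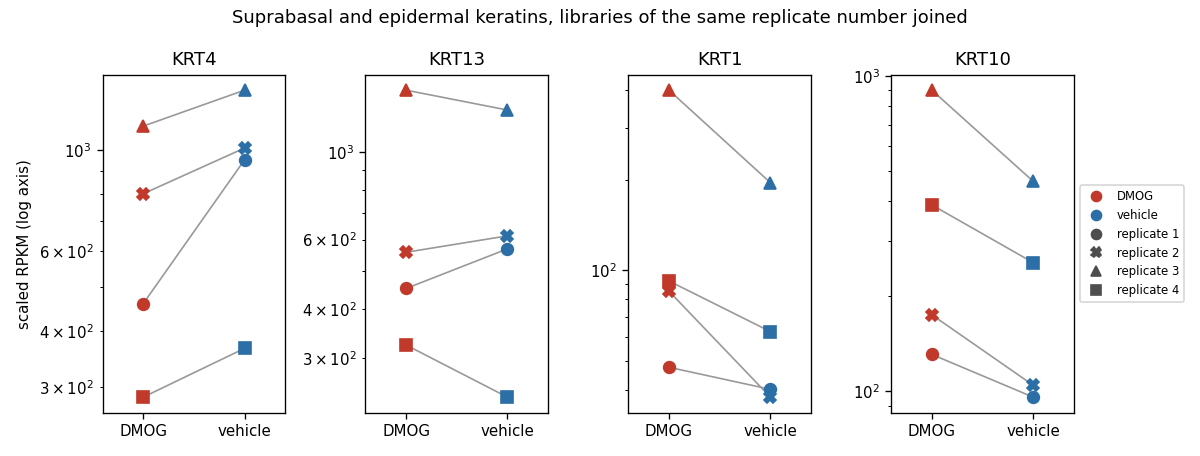
Scaled RPKM on log axes of KRT4, KRT13, KRT1 and KRT10, with DMOG at the left and vehicle at the right of each panel and lines joining libraries of the same replicate number. The DMOG end is the lower for KRT4 and the higher for KRT1 and KRT10 at every replicate number, and lines of KRT13 run both ways.

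The simple-epithelial keratins KRT8 and KRT18 were low and did not pass the test. KRT8 had 48.19, 20.38, 27.38 and 47.78 scaled RPKM with DMOG, and 25.08, 29.93, 38.23 and 20.4 with vehicle. KRT18 had 71.03, 72.81, 73.4 and 68.59 with DMOG, and 77.56, 105.7, 92.67 and 71.86 with vehicle. For KRT8 the groups overlapped, with DMOG replicates 1 and 4 above all vehicle libraries (log2 fold change 0.55 ± 0.29, adjusted p = 0.183 in 6 libraries and 0.28 ± 0.29, 0.524 in 8). It was called without DMOG replicate 3 (0.81, adjusted p = 0.0421). For KRT18 DMOG was below vehicle at every replicate number (-0.17 ± 0.12, adjusted p = 0.302 in 6 libraries and -0.26 ± 0.13, 0.202 in 8). With RPKM as deposited, a scaling that moved the median of all genes to -0.258 in the 6 libraries, KRT18 was called lower (-0.48, adjusted p = 0.019). The listed spans of KRT8 and KRT18 overlap by 996 bases on opposite strands, and 24% of the 50-base words of KRT18 and 13.8% of those of KRT8 occur in other genes, mainly their pseudogenes.

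KRT2, a type II keratin of the upper epidermis (chr12:53038342-53045959, minus strand), was among the lowest keratins tested and rose in the 6 libraries. It had 3.116, 1.809, 5.583 and 2.31 scaled RPKM with DMOG (231, 158, 406 and 148 reads), and 0.3713, 0.7085, 1.158 and 0.994 with vehicle (33, 60, 120 and 93 reads). All 4 DMOG libraries were above all 4 vehicle libraries. The log2 fold change was 1.31 ± 0.29 (adjusted p = 0.0176) in 6 libraries and 1.16 ± 0.26 (0.118) in 8, on a scale that understates the change of genes near 1 RPKM. The exact permutation p over 8 libraries was 0.0286, the smallest that 4 against 4 libraries allow. It restates the lack of overlap, beside 5.04% of all genes higher without overlap and 7.33% lower. KRT2 met the filter in all DMOG libraries but not in all vehicle libraries, so its high group helped it to be tested. Without DMOG replicate 1, vehicle replicate 1 or vehicle replicate 4 the 6-library call was lost (adjusted p = 0.0561 to 0.0666). Of the 50-base words of KRT2, 0% occur in another gene, and the same holds for KRT23. For the other keratins called in the 6 libraries outside the KRT6 genes, the share was 23.8% for KRT14, 19.9% for KRT16, 14.2% for KRT31, 12.2% for KRT17 and 3.24% for KRT5. KRT14 and KRT16 share words with each other, so the assignment of reads is in part uncertain for these genes too.

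KRT23, a type I keratin of epithelia, and KRT31, a type I hair keratin, were the 2 that fell in the 6 libraries. KRT23 (chr17:39078948-39093895, minus strand) had 14.61, 58.81, 30.45 and 9.079 scaled RPKM with DMOG, and 32.76, 52.91, 73.28 and 41.42 with vehicle. KRT31 (chr17:39549977-39553844, minus strand) had 1, 4.038, 2.165 and 0.4725 with DMOG, and 4.24, 5.773, 4.193 and 2.2 with vehicle. DMOG replicate 2 lay within the vehicle range for both, and the other DMOG libraries were below all vehicle libraries. The log2 fold change of KRT23 was -1.48 ± 0.45 (adjusted p = 0.0466) in 6 libraries and -1.07 ± 0.50 (0.181) in 8. That of KRT31 was -1.07 ± 0.32 (0.0419) in 6 libraries and -0.91 ± 0.37 (0.146) in 8. Both calls were lost on leaving out any 1 of the 6 libraries except DMOG replicate 3 (adjusted p up to 0.129 for KRT23 and 0.132 for KRT31).

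**Figure D4:**
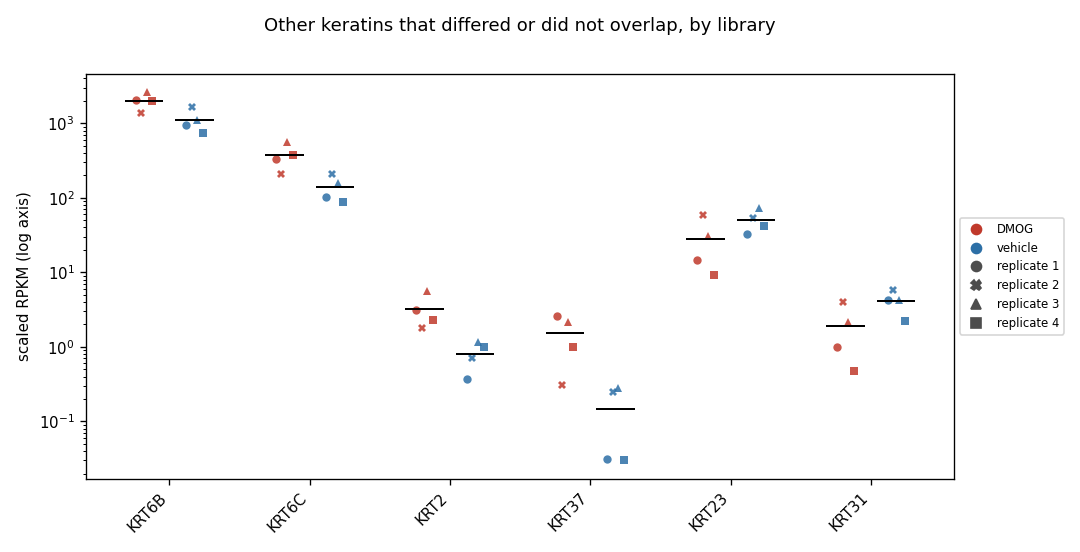
Scaled RPKM on a log axis of KRT6B, KRT6C, KRT2, KRT37, KRT23 and KRT31 in each library, with DMOG in red left of vehicle in blue, the replicate number as the marker and the group mean (n = 4) as a bar. KRT6C, KRT2 and KRT37 show no overlap between groups, and the cross of DMOG replicate 2 is the highest DMOG value for KRT23 and KRT31.

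Of the other keratins tested, none passed in either comparison without the block. KRT19, the type I chain without a fixed partner, had 1487, 968.3, 1321 and 1295 scaled RPKM with DMOG, and 1073, 1193, 1248 and 793.1 with vehicle. It did not overlap between groups in the 6 libraries (log2 fold change 0.42 ± 0.19, adjusted p = 0.122), where 24.7% of all genes were higher without overlap and 26.5% lower, and it overlapped in 8 (0.24 ± 0.18, 0.376). With RPKM as deposited the groups overlapped for KRT19 in the 6 libraries too (0.11, limma adjusted p = 0.63). KRT80, a type II keratin of differentiating cells, had 277.7, 155.6, 334.9 and 227.3 with DMOG, and 147, 237.2, 236.6 and 128.4 with vehicle (0.74 ± 0.25, adjusted p = 0.0624 in 6 libraries and 0.41 ± 0.28, 0.323 in 8). Without vehicle replicate 3 the 6-library fit called KRT80 (1.00, adjusted p = 0.0282). For both genes DMOG replicate 2 was below vehicle replicate 2, and DMOG replicates 1, 3 and 4 were above the vehicle libraries of their number.

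KRT78, a type II keratin of stratified epithelia, averaged 280.6 ± 78.68 scaled RPKM with DMOG and 283.3 ± 41.34 with vehicle (SD, n = 4 each), with a log2 fold change of -0.12 ± 0.25 (adjusted p = 0.715) in 6 libraries and -0.04 ± 0.20 (0.893) in 8. The hair follicle keratin KRT75 averaged 4.438 ± 2.789 with DMOG and 6.806 ± 3.493 with vehicle, and the hair keratin KRT34 averaged 1.357 ± 0.6975 with DMOG and 2.553 ± 1.335 with vehicle. Their unblocked log2 fold changes were -0.85 ± 0.51 (adjusted p = 0.233) for KRT75 and -0.49 ± 0.27 (0.2) for KRT34 in 6 libraries, and -0.60 ± 0.44 (0.353) for KRT75 and -0.58 ± 0.30 (0.213) for KRT34 in 8. KRT9, a keratin of palm and sole, averaged 2.922 ± 0.8435 with DMOG and 2.392 ± 0.227 with vehicle (0.23 ± 0.19, adjusted p = 0.357 in 6 libraries and 0.19 ± 0.15, 0.403 in 8). KRT79, a keratin of hair follicle and sebaceous duct, averaged 1.508 ± 0.442 with DMOG and 1.179 ± 0.2394 with vehicle (0.16 ± 0.18, 0.523 in 6 libraries and 0.19 ± 0.15, 0.374 in 8), and its sign turned to -0.02 in 6 libraries with RPKM as deposited.

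The remaining 31 members did not reach the filter, and 6 of them (KRT222, KRT26, KRT28, KRT35, KRT38 and KRT85) were at 0 in every library. A total of 16 did not reach 0.1 RPKM in any library, and 5 reached 1 RPKM in at least 1 library (KRT24, KRT3, KRT37, KRT7 and KRT76). KRT37, a type I hair keratin on chromosome 17 singled out after its values were seen, had 135, 19, 113 and 46 reads in DMOG replicates 1 to 4, and 2, 15, 21 and 2 in vehicle replicates 1 to 4. As scaled RPKM, it had 2.56, 0.306, 2.18 and 1.01 with DMOG, and 0.0316, 0.249, 0.285 and 0.03 with vehicle. The groups did not overlap in these values, but in reads DMOG replicate 2 (19) was below vehicle replicate 3 (21). Below the filter, KRT3 and KRT83 also did not overlap over the 8 libraries in scaled RPKM, but they did not separate in reads. KRT3 had 43 reads in DMOG replicate 4 against 54 in vehicle replicate 1. KRT83 had 4 reads in DMOG replicate 4 and also 4 in vehicle replicates 3 and 4. The share of all genes below the filter without overlap was not computed. With no filter the log2 fold change of KRT37 was 1.35 ± 0.24 (limma adjusted p = 0.0247) in 6 libraries and 1.03 ± 0.30 (0.199) in 8. That 6-library fit called 1185 of 19198 genes higher and 1415 lower. KRT76, a keratin of the oral palate, reached 1.81 scaled RPKM in DMOG replicate 3 alone, with 0.0874 to 0.296 in the other DMOG libraries and 0.0306 to 0.113 with vehicle.

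The authors' deposited table lists 32 keratins, of which 11 were higher and 3 lower at its adjusted p under 0.05, beside 18.8% of its 13424 genes higher and 17.6% lower. All 10 keratins called in the 6 libraries here were called in the same direction in the authors' deposited table, which is computed from the same libraries. The authors' deposited table also called KRT37 (log2 4.05, adjusted p = 6.43e-06), KRT76 (log2 3.88, adjusted p = 0.000137) and KRT80 (log2 0.71, adjusted p = 0.0293) higher, and KRT40 (log2 -1.18, adjusted p = 0.0419) lower.

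Between libraries of the same number, 16, 17 and 16 of the 24 keratins were above vehicle with DMOG in replicates 1, 3 and 4, and in replicate 2 there were 11 above and 13 below. This is a description, since no label pairs the libraries. Those below in replicate 2 included KRT5, KRT14, KRT17, KRT6A and KRT6B. Leaving out DMOG replicate 2 alone gave 6 keratins higher and 2 lower over 7 libraries, beside 15.6% of all genes higher and 17.6% lower.

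Keratin filaments are anchored at desmosomes and hemidesmosomes by plaque proteins. Of a list of 20 plaque proteins, desmosomal cadherins and other keratin partners, 19 were tested. In the 6 libraries 10 rose and 2 fell, beside 13.9% of all genes that rose and 16.0% that fell, with a median log2 fold change of 0.59 beside 0.00 for all genes. In 8 libraries 0 were called and the median was 0.46. DSC2, a desmosomal cadherin, had 404, 240, 464 and 459 scaled RPKM with DMOG, and 158, 260, 201 and 170 with vehicle, overlapping only through replicate 2. Its log2 fold change was 1.33 ± 0.13 (adjusted p = 0.00324) in 6 libraries and 0.97 ± 0.24 (0.118) in 8. DSP, the desmoplakin that ties keratins to desmosomes, had 0.92 ± 0.18 (0.0122) in 6 libraries, lost without vehicle replicate 1 (0.0584), and 0.71 (0.118) in 8. The plaque protein PKP2 had 1.15 ± 0.18 (0.00836) in 6 libraries and 0.71 (0.153) in 8. EPPK1, the cytolinker epiplakin, fell in the 6 libraries (-1.14 ± 0.25, adjusted p = 0.0177), a call lost without DMOG replicate 1, vehicle replicate 3 or vehicle replicate 4 (0.0555 to 0.0616).

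Of 16 other intermediate filament genes 5 were tested, and VIM (vimentin) was the 1 called in the 6 libraries, beside 13.9% of all genes called higher. VIM had 288, 156, 119 and 152 scaled RPKM with DMOG, and 87.2, 115, 49.2 and 31.9 with vehicle. These values did not overlap, beside 5.04% of all genes higher without overlap in 8 libraries. The gap between DMOG replicate 3 and vehicle replicate 2 depends on the scaling, with factors of 0.9316 and 1.0085 for these libraries. The log2 fold change of VIM was 1.73 ± 0.43 (adjusted p = 0.0262) in 6 libraries and 1.41 (0.118) in 8. The 6-library call was lost without DMOG replicate 1, vehicle replicate 3 or vehicle replicate 4 (0.0729 to 0.0811).

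Of 33 regulators of squamous identity and keratin genes 32 were tested, of which 4 rose and 2 fell in the 6 libraries, and 0 were called in 8. These shares of the list did not exceed the 13.9% of all genes that rose and the 16.0% that fell. Their median log2 fold change was 0.36 in 6 libraries and 0.29 in 8. GRHL1 (0.72 ± 0.19, adjusted p = 0.0306), ELF3 (0.47 ± 0.14, 0.0477) and NFE2L2 (-0.56 ± 0.16, 0.0414) were called in 6 libraries and each lost the call in 4 or 5 of the 6 fits that left out 1 library. In 8 libraries GRHL1 had 0.42 (0.233), ELF3 0.39 (0.181) and NFE2L2 -0.40 (0.15). TP63, the master factor of stratified epithelia, had -0.27 ± 0.11 (adjusted p = 0.0909) in 6 libraries and -0.21 (0.242) in 8, and SOX2 had -0.09 ± 0.27 (0.808) in 6 and -0.05 (0.893) in 8.

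Promoter sequences were matched in RefSeq (GRCh38.p14) for 10 of the 24 tested keratins, and 3 are shown for members that moved in opposite directions in the 6 libraries: KRT2 and KRT5, which rose, and KRT31, which fell. Each line holds the 250 bases before the start of the gene, 5′ to 3′ on the minus strand, at chr12:52652212-52652461 for KRT2, chr12:52520395-52520644 for KRT5 and chr17:41397609-41397858 for KRT31. Capitals mark ACGTG or GCGTG, the core of the hypoxia response element, on either strand.
KRT2: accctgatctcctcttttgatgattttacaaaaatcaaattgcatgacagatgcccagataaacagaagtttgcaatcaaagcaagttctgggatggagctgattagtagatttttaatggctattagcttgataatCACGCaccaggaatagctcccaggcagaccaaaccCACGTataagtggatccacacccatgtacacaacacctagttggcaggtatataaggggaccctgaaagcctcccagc
KRT5: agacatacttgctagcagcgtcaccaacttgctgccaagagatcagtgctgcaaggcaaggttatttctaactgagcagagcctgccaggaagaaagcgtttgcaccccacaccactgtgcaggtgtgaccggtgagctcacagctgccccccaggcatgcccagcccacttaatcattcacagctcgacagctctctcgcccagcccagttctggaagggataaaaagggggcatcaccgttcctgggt
KRT31: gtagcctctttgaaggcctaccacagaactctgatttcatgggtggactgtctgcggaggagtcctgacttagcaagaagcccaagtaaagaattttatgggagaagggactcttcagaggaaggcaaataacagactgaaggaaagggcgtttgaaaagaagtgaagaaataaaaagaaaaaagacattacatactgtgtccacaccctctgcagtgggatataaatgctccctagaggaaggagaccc
The KRT2 window holds 2 such words, which begin 113 and 78 bases before the start, and those of KRT5 and KRT31 hold none. Among the 10 matched keratins 3 windows hold ACGTG or GCGTG (30%), beside 43.2% of 35116 promoter windows of the same length. Besides KRT2 these are KRT75, with 1 word at 184 bases before the start, and KRT9, with 1 at 53 bases. Neither was called in the 6 libraries without the block (log2 fold change -0.85 for KRT75 and 0.23 for KRT9). For 6 of the 10 windows, bases 11 to 40 after the start were found in a transcript of the gene. TGANTCA, the AP-1 word, was in 0 of the 10, beside 6.57% of all promoters, and TATAAA, the TATA box, in 3, beside 10.7%, both searched on either strand. These matches describe letters only, and binding was not measured.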

How the data were processed

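Groups come from the treatment in the labels and replicate numbers from the titles. Since no label ties replicates to separate cultures, p-values reflect only the spread among these libraries, possibly a technical one. RPKM values were deposited for 25369 genes with hg19 positions. The submitters' processing notes name HTSeq 0.6.1, TopHat2 2.0.13 and Bowtie2 2.2.3.0, beside Picard 1.129, SAMtools 1.3.1, FastQC 0.11.5 and bcl2fastq, without their roles, and mention GRCh37/hg19 as well as GRCh38/hg38. Strand handling is not given in the sources at hand. The authors' deposited fold-change table holds, per the file headers, normalized group means (signal), a ratio, its log2 value and a p-value. Its headers name no group: its means were recovered as weighted means of replicates 1, 3 and 4 of vehicle and of DMOG, which gives the direction of its fold changes (DMOG over vehicle).

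RPKM were divided by median-ratio factors over the 8 libraries (0.8494 to 1.1377), and these values are called scaled RPKM. Genes at 1 RPKM or more in at least 4 libraries (11122) were fitted with limma-trend (limma 3.58.1, R 4.3.3, robust, two-sided) on log2(scaled RPKM + 1). P-values were adjusted by Benjamini-Hochberg over all 11122 genes, with a threshold of 0.05. Class sums, ratios and lists have no test. Multiplying RPKM by gene length and by library total gave whole reads for 100% of values above 0 (within 0.01 reads), except for 597 genes with several listed positions, and limma-voom on these reads of 11041 genes was an alternative. No label states that same-numbered libraries are paired. Over the 6 libraries, deviations of same-numbered libraries correlated at 0.47, 0.40 and 0.34. Over 8 libraries they correlated at 0.07, -0.02, 0.53 and 0.24. The replicate block thus rests on these same values, and its p-values do not allow for that choice. Other alternatives were RPKM as deposited, a pseudocount of 0.1, other filters and leaving out each library.

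Named were all keratins that passed the filter, and from each list outside the family up to 4 called genes with the largest fold change, plus TP63, SOX2 and VIM. The values of 1 gene that this rule names are not reported here. The members, classes and lists were chosen with earlier results of these data known. Counting error alone allows up to 3 reads, or 0.0751 to 0.096 RPM, where 0 is listed.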

Additional observations from a re-analysis of the deposited data

Results flagged for a closer look

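In 48 groups of 4 libraries (24 keratins by treatment), 3 had a library whose distance from the rest passed Dixon's 95% limit. Chance passes this limit in about 5% of groups. KRT1, the type II keratin of suprabasal epidermis, was highest in replicate 3 with both treatments, at 400.4 scaled RPKM with DMOG and 196.5 with vehicle, against 47.49 to 92.23 in the other DMOG libraries and 37.73 to 62.49 in the other vehicle libraries. KRT6A was 11720 scaled RPKM in vehicle replicate 2, against 8247 to 8523 in the other vehicle libraries.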

How the results depend on the processing

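Values of single keratins were recomputed 648 times under alternatives, of which 582 kept direction and side of the threshold, 37 lost a call, 16 gained one and 13 changed sign without a call. The cause was not tested. With RPKM as deposited, KRT13 turned to -0.18 in 8 libraries and -0.22 in 6, and KRT79 to -0.02 in 6. Leaving out 1 library gave log2 fold changes in 6 libraries of -0.25 to 1.27 for KRT1, -0.55 to 0.69 for KRT13, -0.39 to 0.07 for KRT78 and -0.01 to 0.26 for KRT79. In 8 libraries it gave -0.4 to 0.42 for KRT13 and -0.21 to 0.09 for KRT78.

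The 2 keratins lower in 6 libraries became 1 with a pseudocount of 0.1 and 0 with no filter. With the replicate block they became 4, and 2 other filament genes and 11 regulators were higher; the block changed no other count by more than 1.5 times. With no filter 0 other filament genes and 2 regulators were higher and 0 regulators lower. With RPKM as deposited 1 regulator was higher and 4 were lower, and 1 other filament gene was lower.

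Leaving out 1 library gave 0 to 6 keratins higher and 0 to 2 lower in 8 libraries, where calls came only without DMOG replicate 2, and 2 to 9 higher and 0 to 2 lower in 6 (2 higher without vehicle replicate 1, and 3 without DMOG replicate 1 or vehicle replicate 4). The calls over all genes in 6 libraries moved too, from 389 higher and 497 lower without vehicle replicate 1 to 2265 higher and 2493 lower without DMOG replicate 3. Of the plaque and partner list, leaving out 1 library gave 0 to 10 genes higher and 0 to 2 lower in 8 libraries, and 4 to 12 higher and 0 to 2 lower in 6. For other filament genes it gave 0 to 1 higher in 8 libraries, and 0 to 3 higher and 0 to 1 lower in 6. For regulators it gave 0 to 6 higher and 0 to 2 lower in 8 libraries, and 0 to 8 higher and 0 to 2 lower in 6. The class ratios, whose alternatives were chosen after seeing the data, moved by less than the replicate spread, though leaving out 1 library gave log2 ratios of -0.74 to 0.12 for the suprabasal and -0.03 to 1.48 for the epidermal sum. Depth limits KRT37 and other genes below the filter.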
